A study of Mus musculus with 16 samples.

Results

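The 8 genes Cacna1a, Cacna1b, Cacna1c, Cacna1d, Cacna1e, Cacna1g, Cacna1h and Cacna1i encode pore-forming subunits of voltage-gated calcium channels. They were taken by symbol from the 48795 genes of the deposited count table, and all 8 passed the filter on low counts that left 19151 genes for testing. RNA was sequenced from dissociated dorsal root ganglia of mice at lumbar levels L4 to L6, which hold the cell bodies of sensory neurons of the sciatic nerve. Each mouse had a sciatic nerve crush on one side, and its ganglia were collected after 24 h or 72 h. The 4 groups, injured 24 h, naive 24 h, injured 72 h and naive 72 h, hold 4 libraries each, 16 in all. All ganglia passed a Percoll step, no agent other than the crush is named, and strain, sex and age are not given in the sources used here. According to the series text naive ganglia came from the crushed animals, so they are not ganglia of unoperated mice. No time is written in the column names of the 72 h libraries, which were identified because all other columns name 24 h.

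Voltage-gated calcium channels open when the membrane depolarises and let calcium into the cell. The pore subunit sets the voltage range, kinetics and drug sensitivity of a channel, while the alpha2delta and beta subunits that join most of them adjust its trafficking and gating. L-type pores (Cav1: Cacna1c, Cacna1d) couple depolarisation to contraction and to transcription. Cav2 pores (Cacna1a, P/Q-type; Cacna1b, N-type; Cacna1e, R-type) serve transmitter release, and the N-type channel of nociceptor terminals in the spinal cord is the target of the analgesic conotoxin ziconotide. T-type pores (Cav3: Cacna1g, Cacna1h, Cacna1i) open near the resting potential, do not need the auxiliary subunits, and shape the excitability of sensory neurons, Cacna1h most of all in this ganglion.

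Gene counts per library ranged from 32758978 to 56484541. Of 20 genes found in all neurons, 0 lacked counts in every library, and their summed level was 22820 to 29670 CPM (counts scaled to a fixed library total) over the libraries. All values below are CPM after TMM scaling unless stated otherwise. As a check of the labels, all 6 injury genes listed for it, among them Atf3 and Sox11, were higher in injured ganglia at both times. In these bulk libraries of dissociated, Percoll-treated ganglia, fewer cells of a type, including cells lost in preparation, and less RNA per cell cannot be told apart.

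Among the 8 genes, 2 have a RefSeq start that coincides with the outer end of the gene in GENCODE M21, and for this reason their proximal promoters are shown. Of these, Cacna1b rose at 24 h and Cacna1i fell at 72 h. Each line runs from 250 bases before the start to 50 bases after it, and capitals mark a GC box (GGGCGG) or a CRE half-site (TGACG) on either strand (RefSeq, GRCm38.p6, chr2:24763103-24763402 on the minus strand and chr15:80286988-80287287 on the plus strand).
Cacna1b: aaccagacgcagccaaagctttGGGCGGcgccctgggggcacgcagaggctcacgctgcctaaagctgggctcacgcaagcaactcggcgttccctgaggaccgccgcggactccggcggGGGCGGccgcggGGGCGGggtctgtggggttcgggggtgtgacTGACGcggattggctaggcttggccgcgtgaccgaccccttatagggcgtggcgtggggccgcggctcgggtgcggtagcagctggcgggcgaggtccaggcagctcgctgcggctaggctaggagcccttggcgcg
Cacna1i: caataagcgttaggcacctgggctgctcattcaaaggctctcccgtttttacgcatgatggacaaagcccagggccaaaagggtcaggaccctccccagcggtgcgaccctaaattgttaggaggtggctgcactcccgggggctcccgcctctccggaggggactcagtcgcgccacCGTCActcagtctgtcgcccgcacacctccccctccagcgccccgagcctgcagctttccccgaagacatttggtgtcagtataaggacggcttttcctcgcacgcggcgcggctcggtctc
The Cacna1b window held 3 GC boxes and 1 CRE half-site, and the Cacna1i window held 1 CRE half-site, read on the other strand. Neither held the AP-1 motif TGANTCA or the TATA box TATAAA. Of 32851 promoter windows of this length, 35.7% held the GC box, 20.8% the CRE half-site, 7.81% the AP-1 motif and 13.6% the TATA box, all counted on both strands. These are matches of letters and were not tested for binding.

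Levels between genes were compared per kb of exon. In the 8 naive libraries of both times, Cacna1b had the highest level, 12.1 ± 1.76 CPM per kb (SD, n = 8), 2.20 times that of the next gene. Cacna1a (5.49 ± 0.588) and Cacna1h (range 4.37 to 5.66) followed, with ranges that overlapped, and then Cacna1c (3.67 ± 0.322), whose range lay below that of Cacna1h. A gap of 6.00-fold separated these 4 genes from Cacna1i (0.611 ± 0.0655), Cacna1e (0.551 ± 0.109) and Cacna1d (0.411 ± 0.0679), each of which overlapped the next. Cacna1g was at 0.0439 ± 0.0289 CPM per kb. With the length of the longest annotated transcript in place of the union of exons, Cacna1e stood above Cacna1i (0.932 and 0.616 CPM per kb), Cacna1c was close to Cacna1h (5.90 and 5.93), and the other places in the order were as given.

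**Figure D1:**
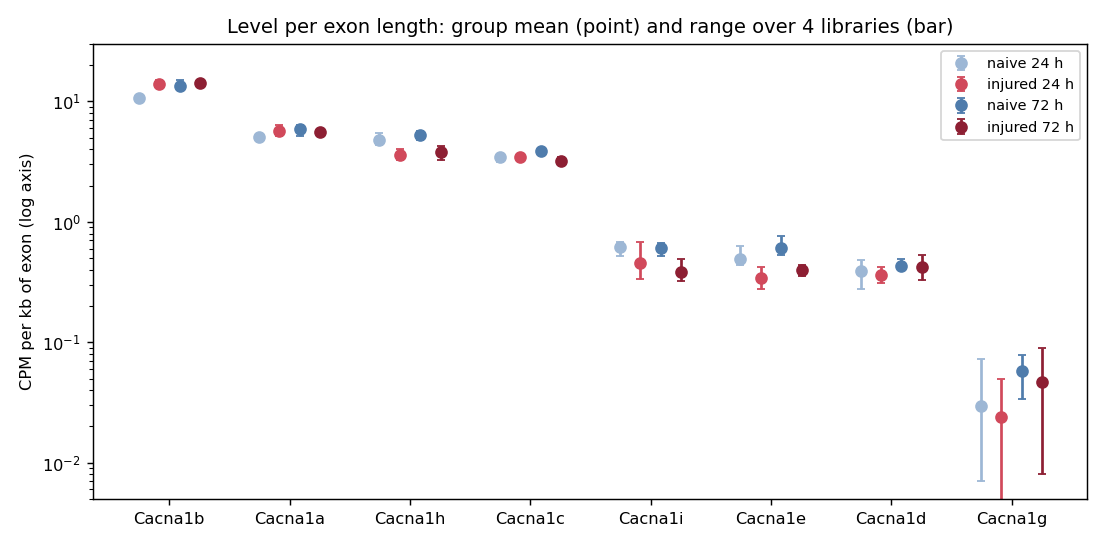
Level of each pore subunit gene in CPM per kb of exon (log axis); points are group means and bars the range over 4 libraries. Cacna1b stands highest in all 4 groups and Cacna1g lowest. The bar of Cacna1g in injured 24 h ganglia reaches 0 and leaves the axis.

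At 24 h, 3 of the 8 genes changed after the crush: Cacna1b rose, and Cacna1h and Cacna1e fell. At 72 h, 4 fell, Cacna1h, Cacna1e, Cacna1i and Cacna1c, and none rose (edgeR; by DESeq2 also 4 fell and 0 rose, and 0 were higher at an unadjusted p under 0.05). Among all genes tested, 19.0% were called at 24 h (10.7% higher, 8.31% lower) and 27.8% at 72 h (14.4% higher, 13.5% lower). The median log2 fold change of the 8 genes was −0.22 at 24 h and −0.30 at 72 h, against −0.008 and −0.007 over all genes tested. Injured and naive libraries did not overlap for 3 of the 8 genes at 24 h and for 4 at 72 h, where 18.5% and 31.3% of all genes did not overlap. The 2 comparisons share no libraries.

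**Figure D2:**
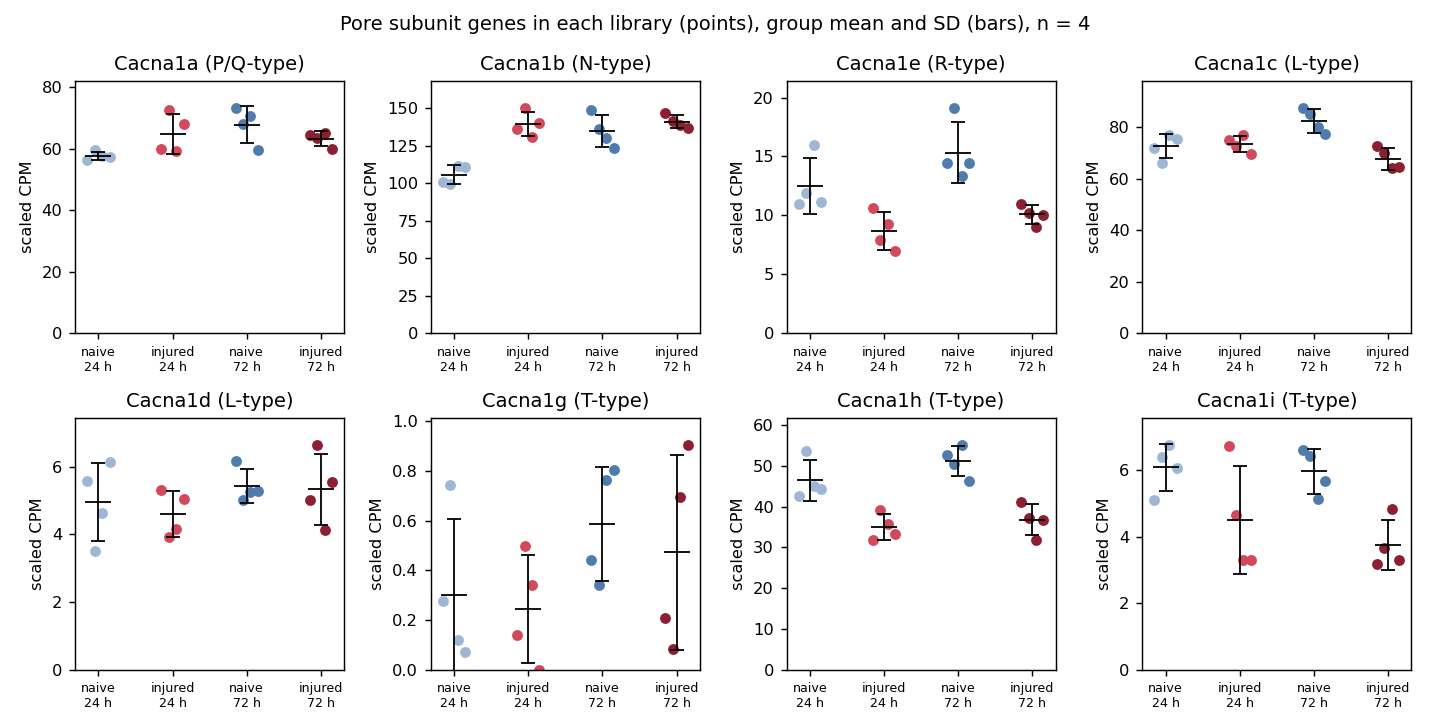
Scaled CPM of the 8 genes in every library, with group mean and SD (n = 4); each panel has its own scale, starting at 0. Cacna1h and Cacna1e are lower in injured than in naive ganglia at both times. For Cacna1b the naive 24 h libraries, at 99.3 to 112 CPM, are below the libraries of the other 3 groups.

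Cacna1b, the N-type pore (ENSMUSG00000004113, chromosome 2, 24603887 to 24763152, GRCm38), was the single member that rose. At 24 h the injured libraries had 136, 150, 131 and 140 CPM, and the naive libraries 101, 99.3, 112 and 111. Every injured library was above every naive one, and the gene rose by 0.40 on the log2 scale (SE 0.06, adjusted p = 2.78e-05 by edgeR), or 31.9%. At 72 h the injured libraries had 147, 142, 139 and 137 CPM and the naive libraries 149, 136, 130 and 124. These groups overlapped, and the log2 fold change was 0.07 (95% interval −0.06 to 0.19, edgeR adjusted p = 0.458).

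The 72 h response of Cacna1b minus its 24 h response was −0.33 (log2, SE 0.08, edgeR adjusted p = 0.0184), 1 of 2 members called lower in this test, with 0 called higher by edgeR or DESeq2 and 0 at an unadjusted p under 0.05. These comparisons share libraries with one another. Naive libraries at 72 h were above those at 24 h by 0.35 (SE 0.06, adjusted p = 0.00278 by edgeR), with no overlap, whereas injured libraries at 72 h and 24 h differed by 0.02 (95% interval −0.11 to 0.14, edgeR adjusted p = 0.894). Without injured 24 h replicate 2 the difference of responses was −0.29 (edgeR adjusted p = 0.0513). Cacna1b was the single member called by edgeR between naive times (DESeq2 also called Cacna1a). There 2.34% of all genes were called (1.61% higher, 0.731% lower), and between responses 6.30% were (2.86% higher, 3.44% lower). At an unadjusted p under 0.05 by edgeR, 4 of the 8 members were higher in naive libraries at 72 h and 0 lower. Over all genes, 3186 of 19151 had such a p in either direction. The median log2 fold change of the 8 genes between naive times was 0.21, against 0 over all genes tested. The comparison of injured libraries across times was added after the data were seen. It called 0 members by edgeR or DESeq2 and 0 at an unadjusted p under 0.05, against 15.7% of all genes (7.82% higher, 7.85% lower). Between naive times 4 of 8 endothelial and 3 of 9 mural markers were also higher and 1 mural marker lower, and their part in the Cacna1b value was not tested. The labels give no batch beyond the time, so time after the crush and other differences between the 2 sets of animals cannot be told apart.

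Cacna1a, the P/Q-type pore, which drives release at many central and motor synapses (ENSMUSG00000034656, chromosome 8, 84388440 to 84640246), was not called by the main edgeR test in either injury comparison. Its 24 h values were 59.8, 72.5, 59.2 and 68.0 CPM in injured and 56.4, 59.5, 57.7 and 57.1 in naive libraries, and 3 of the 4 injured libraries were above all naive ones. The log2 fold change was 0.17 at 24 h (95% interval 0.02 to 0.32, edgeR adjusted p = 0.102) and −0.10 at 72 h (−0.25 to 0.05, adjusted p = 0.341). Without injured 24 h replicate 1 the 24 h value was 0.21 and was called (edgeR adjusted p = 0.0476). With a block for the replicate number the 24 h value was 0.17 and was also called (edgeR adjusted p = 0.0487). No label says that the numbers mark an animal. At 72 h the ranges were 59.9 to 65.2 CPM in injured and 59.5 to 73.2 in naive libraries, and the naive libraries of the 2 times differed by 0.23 (SE 0.07, edgeR adjusted p = 0.0807; called by DESeq2, adjusted p = 0.0363). An antisense gene, Gm16183, shares 435 bp of exon with Cacna1a but had only 0 to 4 counts per library.

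Cacna1e, the R-type pore, which contributes to release and to dendritic calcium entry (ENSMUSG00000004110, chromosome 1, 154390731 to 154884501), fell at both times. At 24 h injured libraries had 10.6, 7.91, 9.25 and 6.96 CPM and naive libraries 10.95, 11.89, 15.97 and 11.16. The groups did not overlap, although the highest injured and the lowest naive value were close, and Cacna1e fell by 30.6%, a log2 fold change of −0.53 (SE 0.14, edgeR adjusted p = 0.0115). This call rested on naive 24 h replicate 3, the highest library, without which the log2 fold change was −0.39 (edgeR adjusted p = 0.0657). At 72 h the injured libraries had between 9.02 and 10.23 CPM in 3 cases and 11 in replicate 1, and the naive libraries had 14.4, 19.1, 13.3 and 14.4. The gap was wider here, and Cacna1e fell by 34.2% (log2 fold change −0.61, SE 0.14, edgeR adjusted p = 0.00217). The responses of the 2 times differed by −0.08 (95% interval −0.50 to 0.34, edgeR adjusted p = 0.907).

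Cacna1c, the L-type pore of heart, smooth muscle and neurons (ENSMUSG00000051331, chromosome 6, 118587240 to 119196418), was lower at 72 h. Injured 72 h libraries had 72.6, 70.0, 64.0 and 64.5 CPM and naive 72 h libraries 87.5, 85.3, 80.0 and 77.4, with no overlap. It fell by 17.9% (log2 fold change −0.29, SE 0.06, edgeR adjusted p = 0.00115). At 24 h the injured libraries had 75.0, 72.8, 77.1 and 69.6 CPM and the naive libraries 72.1, 66.3, 77.2 and 75.6. These overlapped throughout, with a log2 fold change of 0.02 (95% interval −0.11 to 0.15, edgeR adjusted p = 0.902). The difference of the responses, −0.30 (SE 0.09), was near the threshold (edgeR adjusted p = 0.0440) and was lost on leaving out any one of 11 of the 16 libraries, all but injured 24 h replicate 4, naive 24 h replicates 3 and 4, injured 72 h replicate 1 and naive 72 h replicate 4. Over those 16 omissions it ranged from −0.34 to −0.26. Naive libraries at 72 h differed from those at 24 h by 0.18 (SE 0.06, edgeR adjusted p = 0.123). Injured libraries at 72 h differed from those at 24 h by −0.12 (95% interval −0.25 to 0.01, edgeR adjusted p = 0.228).

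Smooth muscle also uses Cacna1c, so the mural cell markers are given beside it. At 72 h, 1 of 9 was higher and 2 were lower in injured ganglia, with a median log2 fold change of −0.21. Their summed level was 498 to 546 CPM in injured and 461 to 530 CPM in naive libraries. The marker called higher, Mcam, was a large part of this sum, with means of 282 CPM in injured and 199 CPM in naive libraries. Its log2 fold change was 0.50, and those of the other markers were all negative, from −0.64 (Kcnj8) to −0.07 (Des). None of the 9 was at 0 in all libraries, and their part in the Cacna1c result was not tested.

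Cacna1d, the L-type pore that opens at more negative voltages than Cacna1c (ENSMUSG00000015968, chromosome 14, 30039939 to 30491455), was not called at either time. Over all 16 libraries it lay between 3.52 and 6.64 CPM, and injured and naive ranges overlapped at both times. The log2 fold changes were −0.11 at 24 h (95% interval −0.48 to 0.27) and −0.02 at 72 h (−0.39 to 0.35), so changes of the size seen for Cacna1h lie inside the 24 h interval. Chdh, a gene on the other strand, shares 589 bp of exon with Cacna1d and had 37 to 204 counts per library, against 135 to 324 for Cacna1d. As the strand setting of the counting is not given in the sources used here, reads of these 2 genes could not be told apart there, and the values of Cacna1d are uncertain to that extent.

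Among the T-type pores, Cacna1h (ENSMUSG00000024112, chromosome 17, 25374285 to 25433783), the main T-type gene of sensory neurons, fell at both times. At 24 h injured libraries had 31.9, 39.1, 35.8 and 33.4 CPM and naive libraries 42.6, 53.7, 45.0 and 44.5. At 72 h the values were 41.3, 37.3, 31.9 and 36.9 in injured and 52.6, 50.5, 55.2 and 46.4 in naive libraries. At each time every injured library was below every naive one. Cacna1h fell by 24.5% at 24 h (log2 fold change −0.41, SE 0.09, edgeR adjusted p = 0.00184) and by 28.0% at 72 h (−0.47, SE 0.09, edgeR adjusted p = 0.000207). The responses differed by −0.07 (95% interval −0.33 to 0.19, edgeR adjusted p = 0.854). Tpsg1, on the other strand, overlaps 158 bp of its exons but had 0 to 14 counts per library.

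Cacna1i, a T-type pore with slow kinetics best known from the thalamus (ENSMUSG00000022416, chromosome 15, 80287238 to 80398279), was called at 72 h. Injured 72 h libraries had 3.19, 3.67, 4.85 and 3.30 CPM and naive ones 6.62, 6.42, 5.14 and 5.68, again with no overlap. It fell by 37.1% (log2 fold change −0.67, SE 0.20, edgeR adjusted p = 0.0134). At 24 h the injured libraries had 6.74, 4.67, 3.30 and 3.30 CPM and the naive ones 5.12, 6.39, 6.77 and 6.07. Injured 24 h replicate 1 lay among the naive libraries and the other 3 below all of them, with a log2 fold change of −0.44 (SE 0.20, edgeR adjusted p = 0.139). Without that replicate the value was −0.69 and passed the threshold (edgeR adjusted p = 0.00904), while the responses of the 2 times did not pass a test of their difference (−0.23, 95% interval −0.82 to 0.35, edgeR adjusted p = 0.751).

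Cacna1g, the third T-type pore (ENSMUSG00000020866, chromosome 11, 94408391 to 94474198), was near the limit of detection, with 0 to 45 counts per library. Injured 24 h replicate 4 had 0 counts, which allows up to 0.0728 CPM at 3 counts, a limit that covers counting error only. At this depth a change was not detectable: the intervals of the log2 fold change ran from −2.09 to 1.43 at 24 h and from −1.98 to 1.35 at 72 h. These intervals come from the fit and include the spread between libraries.

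**Figure D3:**
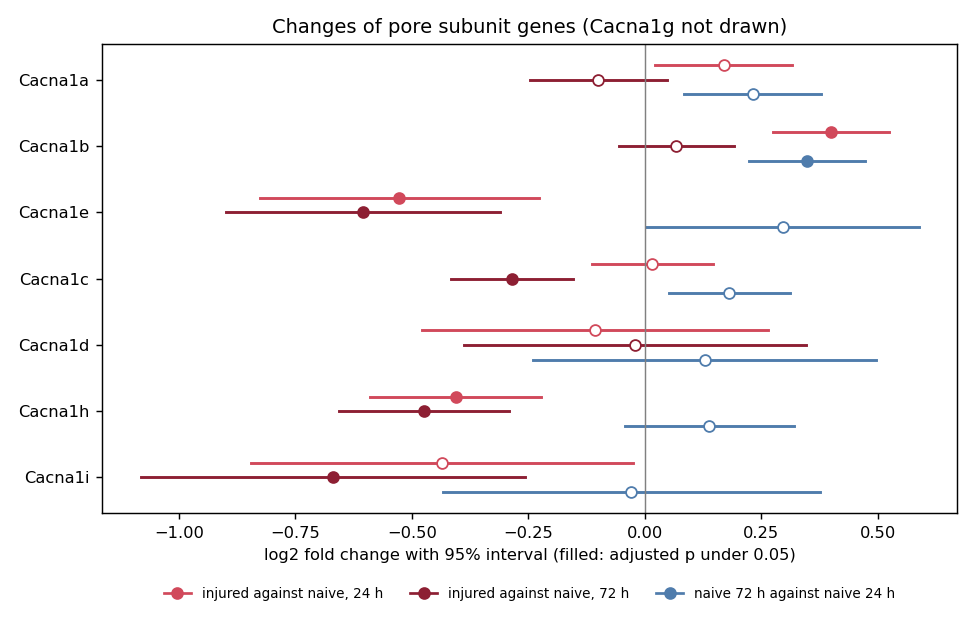
Log2 fold change of 7 pore subunit genes with its 95% interval for injured against naive ganglia at 24 h and 72 h and for naive 72 h against naive 24 h; filled points have an adjusted p under 0.05. Cacna1b is at 0.40 at 24 h and at 0.35 between the naive times. Cacna1g is left out for its wide intervals.

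As shares of the summed level per kb of the 8 genes, Cacna1b took more in injured ganglia at both times. Its share was 50.2% ± 0.623 in injured and 41.8% ± 1.67 in naive ganglia at 24 h, and 50.8% ± 0.453 and 44.7% ± 1.05 at 72 h (SD, n = 4). The T-type genes together went the other way, from 21.3% ± 2.22 in naive to 14.6% ± 0.736 in injured ganglia at 24 h and from 19.5% ± 0.856 to 15.01% ± 0.719 at 72 h. The L-type genes held 15.1% ± 1.08 in naive and 13.8% ± 1.11 in injured ganglia at 24 h, and 14.3% ± 0.361 and 12.9% ± 0.531 at 72 h. A share falls when another gene rises and rises when others fall, so these are descriptions and were not tested. The level of Cacna1b was 14.03 ± 0.821 CPM per kb in injured and 10.64 ± 0.653 in naive ganglia at 24 h. At 72 h it was 14.2 ± 0.415 and 13.55 ± 1.075, a difference that was not called. The T-type sum was 5.40 ± 0.569 and 4.07 ± 0.327 CPM per kb in naive and injured ganglia at 24 h and 5.91 ± 0.369 and 4.199 ± 0.302 at 72 h. CPM per kb is itself relative to the library total.

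For the 5 members called after injury, the genes with the most similar values were sought among 12019 others by the mean absolute difference of centred log2 CPM over the 16 libraries. Nearest to Cacna1b were Cic, B4galt5 and Cyfip2, at 0.06 to 0.07. Nearest to Cacna1c were Itpkb, Pde10a and Unc13a, a vesicle priming gene, at 0.04 to 0.05, and nearest to Cacna1h were Jakmip1, Dab2ip and Car10, at about 0.08. Rab27b, Lcorl and Gpm6a were nearest to Cacna1e, at 0.10 to 0.11, and Lrrn2, Acacb and Fry to Cacna1i, at 0.15 to 0.17. For scale, the members' own mean absolute deviations were 0.15, 0.10, 0.22, 0.29 and 0.35 in that order of members.

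Of 16 genes of auxiliary subunits and their relatives, 14 were tested. At 24 h, 2 rose and 2 fell, and at 72 h, 2 rose and 3 fell. Cacna2d1, the alpha2delta subunit that binds gabapentin, had 558, 593, 561 and 554 CPM in injured and 367, 358, 386 and 369 in naive libraries at 24 h. At 72 h it had 1225, 1513, 1272 and 1333 CPM in injured and 424, 467, 403 and 382 in naive libraries. It therefore rose at both times, with log2 fold changes of 0.61 (SE 0.06, adjusted p = 1.22e-07 by edgeR) and 1.67 (SE 0.06, adjusted p = 4.43e-15). No pore gene was called higher at 72 h.

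Cacna2d2, another alpha2delta gene, fell at both times, to 20.7 ± 2.20 from 33.5 ± 3.92 CPM at 24 h and to 20.1 ± 1.40 from 35.7 ± 2.87 CPM at 72 h (SD, n = 4). Its log2 fold changes were −0.69 and −0.83 (SE 0.09 each, edgeR adjusted p = 8.75e-06 and 3.49e-07). The beta subunit gene Cacnb4 was higher at 24 h (0.21, SE 0.06, edgeR adjusted p = 0.00964) and lower at 72 h (−0.42, SE 0.06, edgeR adjusted p = 4.42e-06). It went from 237 ± 15.2 CPM in injured 24 h to 167 ± 8.61 in injured 72 h libraries, beside 204 ± 13.1 and 223 ± 11.2 in naive ones. Cacnb2 fell by 0.78 on the log2 scale at 24 h (SE 0.18, edgeR adjusted p = 0.00329) and was at −0.26 at 72 h (adjusted p = 0.328). Cacnb1, Cacnb3 and Cacna2d3 were not called at either time, with log2 fold changes between −0.10 and 0.05.

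Of the gamma family, whose members studied in brain mostly attach to AMPA receptors, 2 genes were called at 72 h. Cacng2 (stargazin) fell by 0.71 (SE 0.10, edgeR adjusted p = 1.28e-05), and Cacng5 rose by 0.37 (SE 0.14, edgeR adjusted p = 0.0453). The Cacng5 call was near the threshold and held in 14 of 23 other settings. It was lost without any one of 7 libraries: injured 24 h replicate 3, naive 24 h replicate 3, injured 72 h replicates 3 and 4, and naive 72 h replicates 1, 2 and 3. Without injured 72 h replicate 4 it was 0.23 (edgeR adjusted p = 0.232). The pore genes Cacna1f and Cacna1s, of retina and skeletal muscle, did not pass the filter, with at most 0.214 and 0.524 CPM in any library. Nalcn, the sodium leak channel related to the calcium channel pores, was at −0.13 at 24 h (edgeR adjusted p = 0.227) and fell by 0.57 at 72 h (SE 0.07, edgeR adjusted p = 9.38e-07).

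**Figure D4:**
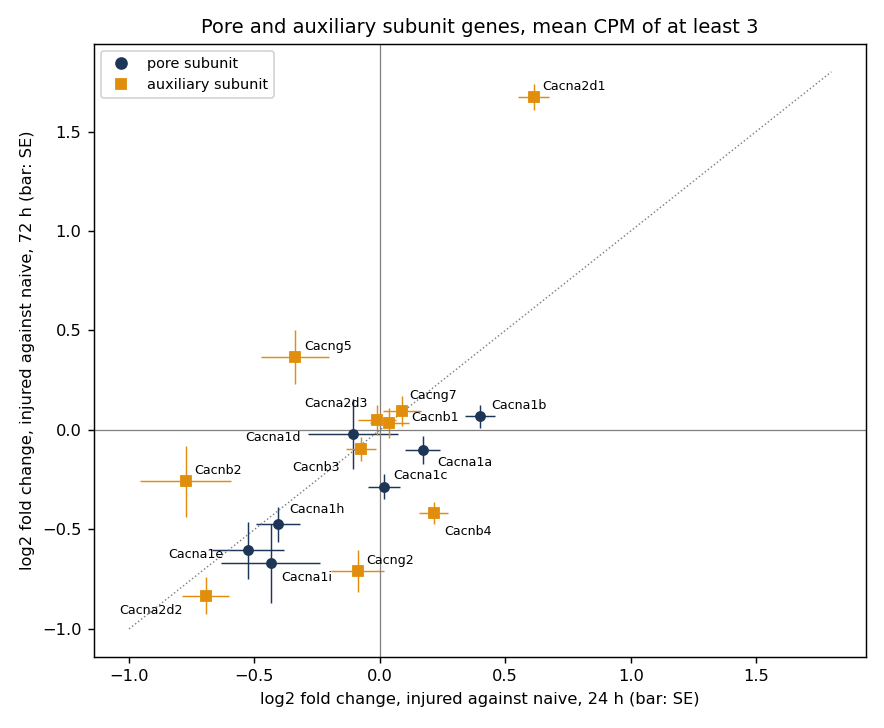
Log2 fold change of injured against naive ganglia at 24 h (horizontal) and 72 h (vertical) with SE bars for pore and auxiliary subunit genes with a mean of at least 3 CPM; the dotted line marks equal values. Cacna2d1 stands apart at 0.61 and 1.67, and Cacna1h, Cacna1e, Cacna1i and Cacna2d2 lie below 0 on both axes.

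Among 23 tested regulators of these channels, 2 rose and 3 fell at 24 h and 4 rose and 4 fell at 72 h. Rem2, a small GTPase that inhibits high-voltage-activated calcium channels, fell by 0.97 at 24 h (SE 0.11, edgeR adjusted p = 8.6e-07) and by 1.10 at 72 h (SE 0.11, edgeR adjusted p = 6.72e-08). Stac, an adaptor that slows inactivation of L-type channels in expression systems, rose by 0.71 and 0.87 (SE 0.075 each, edgeR adjusted p = 1.86e-07 and 3.88e-09). Gnao1, a G protein alpha subunit of the inhibitory pathway onto N-type channels, was lower at 72 h (−0.58, SE 0.07, edgeR adjusted p = 2.9e-07) and at −0.18 at 24 h (adjusted p = 0.0628). Cdk5r1 was lower at 24 h (−0.63, SE 0.09, edgeR adjusted p = 7.84e-06) and at −0.06 at 72 h (adjusted p = 0.682).

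Of 28 genes of calcium stores, pumps and buffers, 6 rose and 4 fell at 24 h and 3 rose and 10 fell at 72 h. Itpr1, the inositol trisphosphate receptor that releases calcium from the endoplasmic reticulum, went from 24.4 ± 4.06 to 94.3 ± 16.4 CPM at 24 h and from 24.6 ± 1.34 to 137 ± 12.9 CPM at 72 h (SD, n = 4). Its log2 fold changes were 1.95 and 2.47 (SE 0.12 each, edgeR adjusted p = 1.71e-11 and 1.31e-13). Ryr3, a ryanodine receptor, rose at both times (0.77 and 0.39, SE 0.12 each), as did Stim2, a sensor of store calcium (0.16 and 0.69, SE 0.05 each; all called by edgeR). Orai2, a store-operated channel, fell by 0.41 and by 0.43 (SE 0.06 each, called by edgeR at both times). Atp2b3, a plasma membrane calcium pump, was at −0.14 at 24 h (edgeR adjusted p = 0.187) and fell by 0.70 at 72 h (SE 0.07, edgeR adjusted p = 7.51e-08).

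The genes of the release machinery that Cav2 channels serve were lower at 72 h in 14 of 22 and higher in 2, with a median log2 fold change of −0.28. At 24 h 4 were higher and 4 lower, with a median of −0.02. Syt7, a calcium sensor of slow release, fell at both times (−0.58 and −0.73, SE 0.08 each), as did Rims3 (−0.40 and −0.62, SE 0.06 each), and the active zone gene Erc2 rose (0.51 and 0.56, SE 0.05 each; all called by edgeR). Of 10 genes of calcium-activated potassium channels and of the anoctamin (Ano) family, 5 fell and 1 rose at 24 h and 4 fell and 2 rose at 72 h. The BK subunit gene Kcnmb1 fell by 0.56 and by 1.25 at 24 h and 72 h (SE 0.12 and 0.13). Ano3 fell by 0.43 and by 0.67 (SE 0.07 each) and Kcnn1 by 0.44 and by 0.78 (SE 0.11 each). Kcnn2 fell by 0.64 and by 0.72 (SE 0.14 each), and all these falls were called by edgeR. Other BK genes were called higher by edgeR: Kcnma1 at both times (0.25 and 0.32, SE 0.07 each) and Kcnmb4 at 72 h (0.705, SE 0.12).

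Markers of cell types are given beside these falls. Of 9 tested markers of low-threshold mechanoreceptors, a class rich in Cacna1h, 3 fell and 1 rose at 24 h and 8 fell at 72 h (median −0.53). At 24 h their summed level was 1074 to 1240 CPM in injured ganglia and 1092 to 1175 CPM in naive ganglia. At 72 h it was 974 to 1038 CPM and 1203 to 1289 CPM, and the groups did not overlap. Among them Ntrk2 fell at 24 h and 72 h (−0.25 and −0.23, SE 0.06 each), as did Slc17a8 (−0.55 and −0.56, SE 0.14 each; all called by edgeR). Ntrk3 rose by 0.33 at 24 h and fell by 0.40 at 72 h (SE 0.09 each, edgeR adjusted p = 0.00802 and 0.0011), and its 2 responses differed (−0.73, edgeR adjusted p = 0.000559). Cadps2, Necab2 and Piezo2 fell at 72 h by 0.53, 0.83 and 0.28 (SE 0.09, 0.16 and 0.06, called by edgeR) and at 24 h were at −0.22, −0.30 and 0.14, not called. The 20 pan-neuronal genes had a median of −0.02 at 24 h (2 rose, 3 fell) and −0.001 at 72 h (5 rose, 6 fell), with summed levels that overlapped between injured and naive libraries at each time.

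Macrophage markers rose in 7 of 12 at 72 h, with summed levels of 72.8 to 112 CPM in injured and 39.6 to 105 in naive libraries. Neutrophil markers were lower in injured than in naive ganglia in 6 of 8 at 72 h, with sums of 38.3 to 147 and 106 to 408 CPM. At 24 h the neutrophil sums were 54.9 to 96.0 CPM in injured and 49.4 to 150 CPM in naive libraries. Between naive times the median log2 fold change of these markers was 1.40, higher at 72 h, with 1 of 8 called. Of 9 satellite glia and 9 myelinating Schwann cell markers, 1 and 0 rose and 1 and 2 fell at 24 h, and 1 and 2 rose and 1 and 0 fell at 72 h. Of 8 endothelial markers, 1 fell at 72 h. By edgeR 0 of 7 fibroblast, 0 of 6 erythroid and 0 of 4 tested muscle markers were called at either time. None of these markers was at 0 in all libraries, and their part in the changes of the pore genes was not tested.

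The second deposited table counts reads in short windows, and 158 of its windows lay inside the 8 genes, 122 of them in introns. Counts were present in 71, and 6 passed the filter, all in Cacna1a. By edgeR 0 of the 6 were called at either time, with 1 at an unadjusted p under 0.05 at 24 h and 1 at 72 h, against 2.88% and 6.19% called among all 13836 windows tested. A B2 window (B2_Mm1t, chromosome 8, 84621715 to 84621738, intron) had, at 72 h, 20 to 61 counts in injured ganglia and 2 to 10 in naive ganglia. These counts are not scaled for depth, and the window was not called. Its log2 fold change was 2.91 (SE 1.03, edgeR adjusted p = 0.105), and at 24 h it had 0 to 31 and 0 to 7 counts. A B1 window of the same gene (B1_Mus1, 84595697 to 84595720, intron) was at 2.52 at 24 h (SE 1.03, edgeR adjusted p = 0.237). In the last exon, a window annotated as 3' UTR (84639742 to 84639765) had, at 24 h, 20 to 57 counts in injured ganglia and 27 to 53 in naive ganglia.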

How the data were processed

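The authors deposited 2 tables of whole read counts, per Ensembl gene and per genomic window, which they had not scaled. Per the submitters' processing notes, the tools were bcl2fastq 2.17, STAR and HTSeq, with GRCm38 and mm10 as builds; their settings, the strand rule and the annotation release are not given in the sources used here. Symbols matched 48349 of 48795 genes. The main test was edgeR's quasi-likelihood test (4.0.16, R 4.3.3) with TMM scaling. Low genes were removed by filterByExpr (per group, at least 10 counts, total at least 15). All 16 libraries entered one model that holds the group alone, and p-values were adjusted by Benjamini-Hochberg over 19151 genes, with calls at 0.05. Standard errors are the absolute log2 fold change over the square root of F. CPM are counts over TMM-scaled library sizes, log2 CPM used a prior count of 2, and exon lengths came from GENCODE M21. Likeness was sought among genes whose log2 CPM averaged 2 or more. Windows were tested likewise with the library sizes of the gene table. Alternatives were DESeq2 1.42.0, other scalings, no filter, single-time fits, a replicate block and each library left out.

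The members and lists were chosen with earlier results of these data known. Named genes were the members, the called auxiliary genes and the 3 genes most like each called member. From each other list, at most the 3 called genes with the smallest p at each injury time were named. Some genes outside this rule, such as Kcnma1 and Kcnmb4, were named in addition. The fitting script was tested on simulated data. The closest pair of libraries within a group had a chi-square of 9.56 per degree of freedom, far above sampling noise, so no library was dropped as a copy. This check cannot tell whether libraries shared an animal. All libraries were counted as separate samples. The labels do not say that the replicates are separate cultures or name the animal of a library, so p-values measure the spread between these libraries. Promoter entries were found for 5 of the 8 genes.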

Additional observations from a re-analysis of the deposited data

Results flagged for a closer look

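The response to the crush differed between the times for Cacna1b, by −0.33 on the log2 scale (72 h minus 24 h; SE 0.08, edgeR adjusted p = 0.0184), from 0.40 to 0.07. It also differed for Cacna1c, by −0.30 (SE 0.09, edgeR adjusted p = 0.0440), from 0.02 to −0.29, a call that held in 9 of 22 other settings. Naive libraries at 72 h stood above those at 24 h for both, by 0.35 and 0.18 on the log2 scale, of which the first was called (edgeR adjusted p = 0.00278 and 0.123). No library stood apart from its group by Dixon's test in any of the 32 combinations of gene and group.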

How the results depend on the processing

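Over 7 other settings and 16 omissions of 1 library, 855 of 880 values of single members kept their side of the threshold, 17 lost a call, 8 gained one and 0 called values changed sign. Most of the 880 values belong to results that were not called as reported. Those could gain a call but not lose one, so the 855 is not a measure of how well calls held. The members called at 24 h numbered 3, and 2 to 5 with a library left out: 5 without injured 24 h replicate 1 and 2 without naive 24 h replicate 3. At 72 h the count was 4 in all 23 settings. For the difference of the responses it was 2, 1 by library size alone, 0 when scaled to the summed pan-neuronal counts (Cacna1b −0.37 and Cacna1c −0.34, no smaller than reported; edgeR adjusted p = 0.121 and 0.259), and 0 to 3 with a library left out; without injured 24 h replicate 2 it was 0. Between naive times it was 1, 2 with no filter on low counts, 2 by DESeq2, 2 when scaled to pan-neuronal counts, and 1 to 2 with a library left out (2 without naive 72 h replicate 4), Cacna1a being the added member each time. The cause was not tested. The pan-neuronal scaling moved the median of all genes between naive times by 0.14 on the log2 scale, and under it Cacna1e at 24 h had an adjusted p of 0.0524 (−0.51, edgeR). With the longest transcript as length, the naive share of Cacna1b was 36.0% in place of 43.2%.

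Same-numbered injured and naive libraries correlated in their deviations at r of 0.097 to 0.32 at 24 h and 0.111 to 0.248 at 72 h, above 0.1 in 7 of 8 pairs, and 15 of 16 libraries correlated best with their own number. The labels do not state that the numbers mark an animal. With the replicate block, 4, 4 and 2 members were called at 24 h, at 72 h and between responses, Cacna1a being added at 24 h (0.17, edgeR adjusted p = 0.0487). Of auxiliary genes, 4 to 5 were called at 24 h, 4 to 5 at 72 h and 3 to 4 between responses with a library left out. Cacng5 at 72 h and Cacnb4 at 24 h lost their calls by pan-neuronal scaling (edgeR adjusted p = 0.0879 and 0.0717), and Cacng5 also by library size alone (0.0662). Precision is lowest for Cacna1g and is also limited for Cacna1i and Cacna1d, whose standard errors at 24 h were 0.198 and 0.179 on the log2 scale.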
